A study of Mus musculus with 6 samples.

Results

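The m6A readers of the YTH and IGF2BP families were examined in testicular RNA of cadmium-treated mice. The 8 members were Ythdf1, Ythdf2, Ythdf3, Ythdc1, Ythdc2, Igf2bp1, Igf2bp2 and Igf2bp3. They were taken by gene name, as the reader genes followed in the study, with earlier results of these data known. All 8 were found among the 14000 genes of the deposited table, with 13 listed transcripts of 27120 in all. Annotation release M21 of GENCODE (mm10) holds 45 transcripts of these genes, so each gene value below is a sum over the listed part.

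The libraries were 3 of H+H+Cd testes and 3 of H+Cd testes (the study's HFD2D and HFD1D groups), from wild-type C57BL/6N males. H+H+Cd males had a grandfather and a father on high-fat diet (HFD), that is 2 paternal generations on the diet. H+Cd males had 1, the father. The diet ran from week 5 to week 15 of life, and the males of both groups themselves received CdCl2, a testicular toxicant, in drinking water for 10 weeks. H+H+Cd males were also born 1 generation later, so diet history and generation cannot be told apart. Neither group is free of cadmium or of a paternal HFD, and no group that is was analysed here.

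N6-methyladenosine (m6A) is a methyl mark on mRNA that acts mainly through proteins that bind it, the readers. YTH proteins hold the methylated base in an aromatic pocket of their YTH domain. In the cytoplasm YTHDF1 is known for promoting translation, YTHDF2 for bringing mRNA to deadenylation and decay, and YTHDF3 for work alongside both. YTHDC1 is the nuclear member and acts in splicing and export, and YTHDC2 is an RNA helicase. In mice, loss of Ythdc2 stops germ cells early in meiosis and Ythdc1 is needed in spermatogonia. The IGF2BP proteins bind RNA through KH domains and are known for keeping their targets stable, and IGF2BP1 and IGF2BP3 are called oncofetal because most adult tissues hold little of them.

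Several readers are measured here as more than 1 isoform. Stretches that tell some of the isoforms apart are shown because the reader genes' values are divided among these isoforms. Ythdc1-203 had the lowest limma p of the 13 reader transcripts. The stretches were read from the GENCODE transcript sequences (mm10), 5′ to 3′, with 20 bases of the joined exons on each side in lower case. Ythdc1 lies on the plus strand of chromosome 5 (86804221 to 86836659). Its transcripts Ythdc1-201 and Ythdc1-203 differ in the coding part by 24 bases at the start of exon 14 of Ythdc1-201 (chr5:86831773-86831796, plus strand), shown in capitals, a length that keeps the reading frame.
Ythdc1-201: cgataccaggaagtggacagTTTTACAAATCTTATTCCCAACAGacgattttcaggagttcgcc
Ythdc1-203: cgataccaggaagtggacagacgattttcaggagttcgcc
In addition, Ythdc1-203 has 331 annotated bases of 5′ UTR, whereas the model of Ythdc1-201 starts at the start codon. Ythdf3-203 has an exon of its own of 149 bases, 61 of them coding (chr3:16186967-16187115), which is not printed. Ythdf3-202 carries a coding exon of 33 bases (chr3:16203187-16203219, plus strand, in capitals), which Ythdf3-201 and Ythdf3-203 skip.
Ythdf3-202: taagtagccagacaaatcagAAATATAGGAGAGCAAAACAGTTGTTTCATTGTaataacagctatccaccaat
Ythdf3-201: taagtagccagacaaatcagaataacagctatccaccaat
The difference in Ythdf2 (minus strand of chromosome 4, 132184912 to 132212303) is far larger. Ythdf2-203 holds 1737 coding bases, of which 1584 lie in 1 exon (chr4:132204132-132205715), and Ythdf2-201 skips that exon and keeps 153 coding bases. The junction of Ythdf2-201 and the start of the exon in Ythdf2-203 (first 20 exon bases in capitals) read as follows.
Ythdf2-201: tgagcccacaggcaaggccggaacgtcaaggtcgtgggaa
Ythdf2-203: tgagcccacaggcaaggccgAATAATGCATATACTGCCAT

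**Figure D1:**
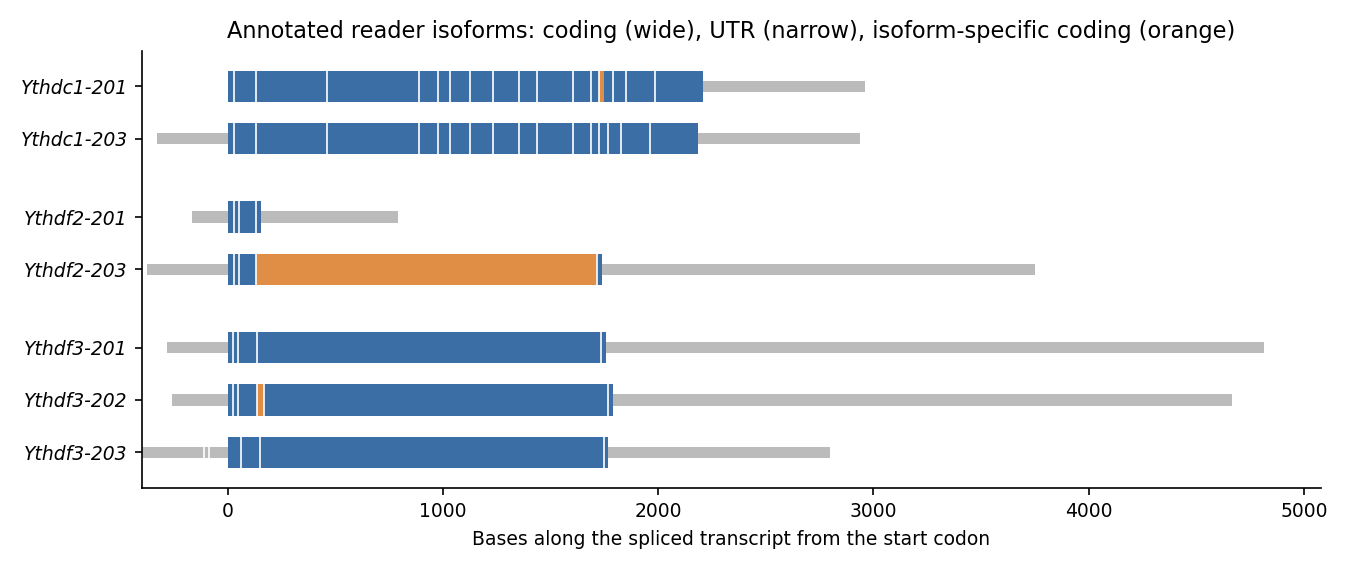
Annotated transcripts of Ythdc1, Ythdf2 and Ythdf3 that are listed in the table, drawn to scale in bases along the spliced transcript from the start codon. Wide bars are coding, narrow bars are UTR and white lines are exon borders. Orange marks the isoform-specific coding bases described in the text (24 in Ythdc1-201, 1584 in Ythdf2-203 and 33 in Ythdf3-202). The 61 coding bases in exon 3 of Ythdf3-203, also specific to it, are not marked. Ythdf2-201 stands out by its 153 coding bases.

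The 3 Ythdf genes share this architecture, which the choice of members did not use. In each, a single exon holds most of the coding sequence, with 1521 of 1677 coding bases in Ythdf1-201, 1584 of 1737 in Ythdf2-203 and 1599 of 1788 in Ythdf3-202. Igf2bp1, Igf2bp2 and Igf2bp3 instead hold 1731, 1776 and 1737 coding bases in transcripts of 15 or 16 exons. Within each family the coding sequences were 69.6% to 71.8% identical over their aligned bases, and the longest exact run that any 2 paralogues shared was 17 to 22 bases, well under the 150 cycles of the sequencing. Malsu1 overlaps Igf2bp3 on the other strand, and an antisense gene overlaps Igf2bp1. The lincRNA Gm43055 overlaps Ythdc1 on the same strand, where strandedness does not separate reads. Libraries were stranded, but the strand setting of the estimation is not given in the sources used here.

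Levels in the table are FPKM, that is, fragment numbers scaled both to the length of the transcript and to the mapped total of the library. Summed FPKM was 382815 to 397147 per library, and 24374 to 25372 transcripts were above 0, while read depth is unknown, so no counting interval was computed. Germ cell markers were abundant in all 6 libraries, with Prm2, which packs sperm DNA, at 3301 to 5022 FPKM, the meiotic Sycp3 at 171.5 to 242.7 FPKM and the germ cell helicase Ddx4 at 199.5 to 226.1 FPKM. The library H+H+Cd replicate 1 stood apart in markers of epididymis and placenta. The summed level of 6 listed epididymis markers was 110.9 FPKM there, 3.58 and 3.88 FPKM in the other H+H+Cd libraries, and 4.85 to 5.67 FPKM in H+Cd. That of 29 listed placenta markers was 272 FPKM there, 15.2 and 18.9 FPKM in the other H+H+Cd libraries, and 17.25 to 34.1 FPKM in H+Cd. Values without that library are therefore given beside the result of each reader gene. Libraries of H+Cd departed in markers of testis cells. The elongating spermatid sum was 16900, 22680 and 22600 FPKM in H+Cd replicates 1, 2 and 3, on both sides of the 19030 to 20080 FPKM in H+H+Cd. The Leydig cell sum was 298.7 FPKM in H+Cd replicate 2 and 515.1 to 618.3 FPKM in the others. A library of each group was high in red blood cell markers. Their sum was 312.4 FPKM in H+H+Cd replicate 1 and 373.9 FPKM in H+Cd replicate 3, against 47.8 to 113.1 FPKM in the remaining libraries.

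Igf2bp3 was by far the most abundant of the 8 readers. It had 43.41, 41.11 and 43.4 FPKM in H+H+Cd testes, against 45.76, 48.82 and 45.31 FPKM in H+Cd testes, and thereby stood above 86.2% of genes by its mean over the 6 libraries. Its mean was 3.59 times that of the next reader in H+H+Cd and 4.93 times in H+Cd, with no overlap in either group. Igf2bp3 took 47.1% to 50.4% of the summed FPKM of all 8 readers in H+H+Cd and 49.98% to 54.2% in H+Cd. The other oncofetal member, Igf2bp1, and its paralogue Igf2bp2 were at the other end, below 1 FPKM in each library.

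The 5 YTH genes lay close together between these extremes. In H+H+Cd, Ythdc1 came second with 10.48 to 13.02 FPKM and did not overlap the next gene. Ythdf1 (mean 8.22 FPKM), Ythdf3 (8.13) and Ythdf2 (7.81) followed with ranges that overlapped each neighbour, and Ythdc2 (7.12) lay just below Ythdf2 with no overlap. In H+Cd the order among the YTH genes was Ythdf2 (9.45 FPKM), Ythdc1 (9.05), Ythdf1 (8.40), Ythdc2 (7.90) and Ythdf3 (7.88), and each overlapped its neighbour. Igf2bp1 stood below the lowest YTH gene by 8.07 times in H+H+Cd and 9.65 times in H+Cd.

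**Figure D2:**
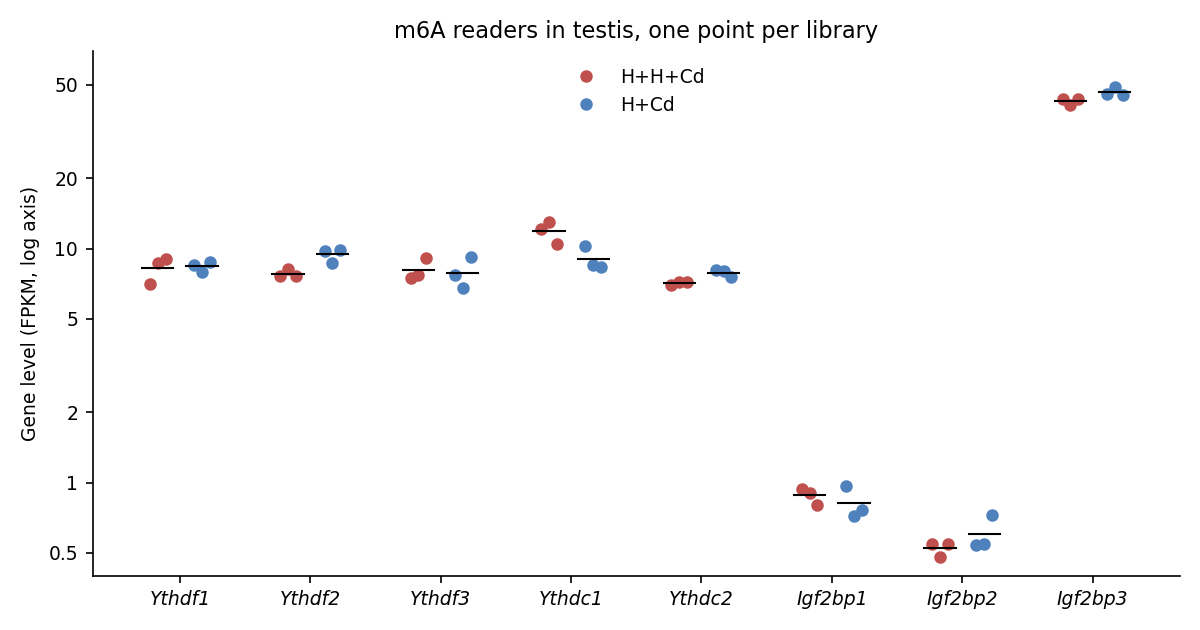
FPKM of each reader gene on a log axis, one point per library, with H+H+Cd left (red) and H+Cd right (blue) and a bar at the mean of 3 libraries. Igf2bp3 sits at 41.11 to 48.82 FPKM, the YTH genes between 6.79 and 13.02, and Igf2bp1 and Igf2bp2 below 1; the groups do not overlap for Ythdf2, Ythdc1, Ythdc2 and Igf2bp3.

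The main comparison asked whether reader mRNA in testes exposed to cadmium differs when HFD was fed through 2 paternal generations rather than 1. Of the 8 readers, 0 passed the threshold (limma, adjusted p under 0.05), against 0.00726% of the 13769 genes tested. All 8 readers passed the filter on low values. By limma 2 readers had an unadjusted p under 0.05, against 11.9% of all genes. Ythdc1 was higher in H+H+Cd (5.31% of all genes on that side) and Ythdf2 lower (6.59%). The per-gene F-test gave 0 readers after adjustment and 4 at an unadjusted p under 0.05, against 10.9% of all genes. The groups did not overlap for 4 readers, 1 higher (Ythdc1) and 3 lower (Ythdf2, Ythdc2 and Igf2bp3), against 19.4% of all genes, 8.34% higher and 11% lower. Log2 fold changes were positive for 3 readers and negative for 5, while 50.2% of all genes were positive. The median log2 fold change of the 8 readers was -0.05, beside 0.00069 for all genes. In bulk tissue, fewer cells of a type and less RNA per cell cannot be told apart.

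Among the cytoplasmic YTH readers, the decay factor Ythdf2 had 7.60, 8.20 and 7.62 FPKM in H+H+Cd, against 9.78, 8.69 and 9.88 FPKM in H+Cd. The highest H+H+Cd library lay below the lowest H+Cd library. The log2 fold change in FPKM + 1 was -0.25 (SE 0.08, 95% confidence interval -0.444 to -0.0477, limma, unadjusted p = 0.0226, adjusted p = 0.390), and the ratio of the group means was 0.826. Without H+H+Cd replicate 1 the log2 fold change was -0.229. With a pseudocount of 0.1 it was -0.271. The adjusted p ran from 0.332 to 0.645 with 1 library left out.

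The translation-promoting Ythdf1 had 7.03, 8.64 and 8.99 FPKM in H+H+Cd, against 8.47, 7.95 and 8.78 FPKM in H+Cd. The H+H+Cd libraries held both the lowest and the highest value, so the groups overlapped fully. Its log2 fold change was -0.03 (95% confidence interval -0.290 to 0.224, limma, adjusted p = 0.919), and turned to 0.0639 without H+H+Cd replicate 1. The interval leaves room for a fall or a rise of up to about the size seen for Ythdf2. Ythdf3 had 7.50, 7.74 and 9.15 FPKM in H+H+Cd, against 7.67, 6.79 and 9.17 FPKM in H+Cd. Replicate 3 was the highest library in both groups, and the log2 fold change was 0.04 (-0.264 to 0.354, limma, adjusted p = 0.906). It was 0.0945 without H+H+Cd replicate 1 and ran from -0.0448 without H+Cd replicate 2 to 0.147 without H+Cd replicate 3. Summed over the 3 paralogues, Ythdf mRNA was 22.1, 24.6 and 25.8 FPKM in H+H+Cd and 25.9, 23.4 and 27.8 FPKM in H+Cd. Within that sum Ythdf2 took 29.6% to 34.3% in H+H+Cd and 35.5% to 37.7% in H+Cd.

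The nuclear reader Ythdc1 was the 1 reader whose libraries were all higher in H+H+Cd. It had 12.16, 13.02 and 10.48 FPKM in H+H+Cd, against 10.29, 8.54 and 8.33 FPKM in H+Cd. The gap between the lowest H+H+Cd and the highest H+Cd library was narrow, and the ratio of the group means was 1.31. The log2 fold change was 0.36 (SE 0.12, 95% confidence interval 0.0791 to 0.638, limma, unadjusted p = 0.0198, adjusted p = 0.378), rank 718 of 13769 genes by p. It was 0.341 without H+H+Cd replicate 1, and the adjusted p ran from 0.187 without H+Cd replicate 1 to 0.645 with another library left out. The study's screen used a fold above 1.2 and, as taken here, an unadjusted F-test p below 0.05. With the fold on the FPKM + 1 scale, 1 reader passed, Ythdc1, against 4.82% of all genes. With the fold as the ratio of mean FPKM, an alternative added after seeing the data, 2 readers passed, Ythdc1 and Ythdf2, against 6.01% of all genes.

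Ythdc2, the helicase needed for meiosis in mice, showed the tightest replicates of all readers. It had 6.96, 7.16 and 7.23 FPKM in H+H+Cd, against 8.09, 8.05 and 7.55 FPKM in H+Cd. The coefficient of variation within groups was 1.97% and 3.81%, and the groups lay apart by a small step. Its log2 fold change was -0.13 (SE 0.07, 95% confidence interval -0.304 to 0.0407, limma, adjusted p = 0.505), and -0.118 without H+H+Cd replicate 1.

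Among the IGF2BP readers, Igf2bp3 had lower values in each H+H+Cd library than in any H+Cd library, as given above. The difference was small, with group means of 42.6 ± 1.32 FPKM in H+H+Cd and 46.6 ± 1.91 FPKM in H+Cd (SD, n = 3 each). The log2 fold change was -0.13 (SE 0.06, 95% confidence interval -0.269 to 0.0171, limma, adjusted p = 0.455), and -0.139 without H+H+Cd replicate 1. Igf2bp1, a stabilising reader, had 0.940, 0.903 and 0.804 FPKM in H+H+Cd, against 0.969, 0.721 and 0.760 FPKM in H+Cd. The highest of the 6 libraries belonged to H+Cd, and H+H+Cd replicate 1, with its placenta markers, was not set apart from the rest. Its log2 fold change of 0.05 had a 95% confidence interval from -0.195 to 0.302 (limma, adjusted p = 0.854). It was 0.0312 without H+H+Cd replicate 1, and ran from 0.0155 without H+Cd replicate 2 to 0.112 without H+Cd replicate 1. Igf2bp2 had 0.544, 0.482 and 0.548 FPKM in H+H+Cd, against 0.538, 0.548 and 0.725 FPKM in H+Cd, which on the log2 scale is a difference of -0.07 (-0.314 to 0.171, limma, adjusted p = 0.790). Only H+Cd replicate 3 stood clear of the other 5 libraries, and without it the log2 fold change was -0.0179, against -0.081 without H+H+Cd replicate 1. At such levels the added 1 FPKM damps fold changes, and with a pseudocount of 0.1 they were 0.107 for Igf2bp1 and -0.164 for Igf2bp2.

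**Figure D3:**
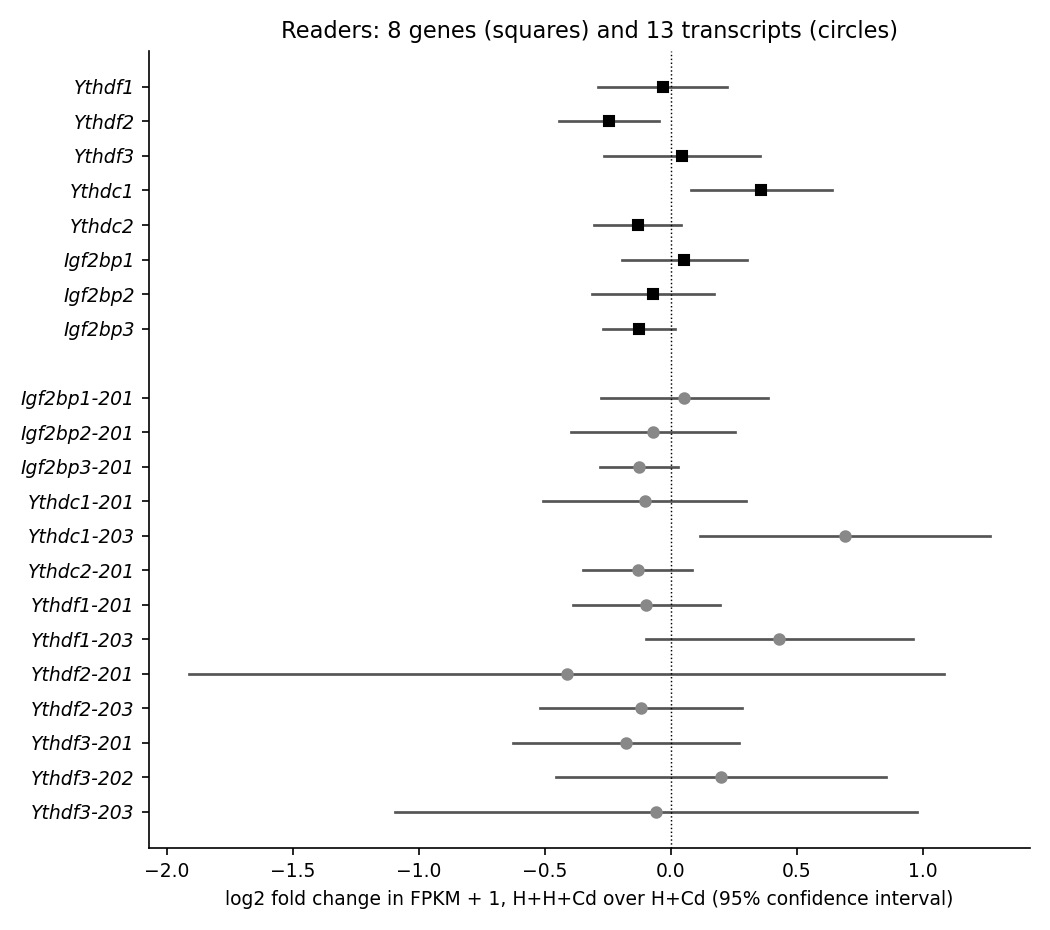
log2 fold change in FPKM + 1, H+H+Cd over H+Cd, with its 95% confidence interval from limma, for the 8 reader genes (squares) and their 13 listed transcripts (circles). The intervals of Ythdc1 (0.0791 to 0.638), Ythdf2 (-0.444 to -0.0477) and the transcript Ythdc1-203 (0.117 to 1.27) leave out 0; none of these passed after adjustment.

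Single transcripts were then compared. All 13 passed the filter, and 0 passed the threshold (limma, adjusted p under 0.05), against 0.13% of the 25322 transcripts tested. By limma 1 (Ythdc1-203) had an unadjusted p under 0.05, against 8.24% of all transcripts. The F-test gave 0 after adjustment and 2 without it, against 8.22% of all transcripts. Those 2 were Ythdc2-201 and Igf2bp3-201, so Ythdc1-203 did not pass the unadjusted F-test. The groups did not overlap for 3 (Ythdc1-203 higher, Ythdc2-201 and Igf2bp3-201 lower), against 15.9% of all transcripts. For Ythdc2, Igf2bp1, Igf2bp2 and Igf2bp3 the table lists a single transcript, and Ythdf1 comes close to that. The gene level of Ythdf1 was 91.1% to 95.3% Ythdf1-201 in H+H+Cd and 94.8% to 99.8% in H+Cd. Its remainder, Ythdf1-203, a model of 596 bases with no annotated 3′ UTR, had 0.472, 0.402 and 0.800 FPKM in H+H+Cd, against 0.0219, 0.0153 and 0.460 FPKM in H+Cd. Its log2 fold change was 0.43 in FPKM + 1 and 1.68 with a pseudocount of 0.1, and the groups overlapped (limma, adjusted p = 0.612 with the pseudocount of 1).

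The higher Ythdc1 values lay in Ythdc1-203, the isoform without the 24-base stretch. It had 7.20, 9.36 and 5.00 FPKM in H+H+Cd, against 4.68, 3.77 and 3.46 FPKM in H+Cd. All H+H+Cd libraries were higher, replicate 3 by little. The log2 fold change was 0.69 (SE 0.23, 95% confidence interval 0.117 to 1.27, limma, unadjusted p = 0.0262, adjusted p = 0.578). It ran from 0.504 without H+H+Cd replicate 2 to 0.898 without H+H+Cd replicate 3, and was 0.673 without H+H+Cd replicate 1. Ythdc1-201, which carries the stretch, had 4.96, 3.66 and 5.48 FPKM in H+H+Cd, against 5.61, 4.77 and 4.87 FPKM in H+Cd. Here the groups overlapped (log2 fold change -0.10, -0.506 to 0.297, limma, adjusted p = 0.849).

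In proportion, Ythdc1-203 made up 59.2%, 71.9% and 47.7% of listed Ythdc1 FPKM in H+H+Cd, against 45.5%, 44.2% and 41.6% in H+Cd. The ratio of Ythdc1-203 to Ythdc1-201 was 1.45, 2.56 and 0.912 in H+H+Cd and 0.834, 0.791 and 0.712 in H+Cd. The shares were tight in H+Cd (SD 1.98 percentage points) and wide in H+H+Cd (SD 12.1), with H+H+Cd replicate 2 the farthest out. The test of transcript usage, on the transcript's log2 level minus that of its gene, gave a difference of 0.33 for Ythdc1-203 (95% confidence interval -0.0654 to 0.732, limma, adjusted p = 0.776) and of -0.46 for Ythdc1-201 (-1.02 to 0.0929, limma, adjusted p = 0.777). Without H+H+Cd replicate 2 they were 0.209 and -0.261, and without H+H+Cd replicate 1 they were 0.332 and -0.485. Of 9 reader transcripts in this test 0 passed, against 0.144% of 18037, and 0 had an unadjusted p under 0.05, against 5.95%. In 2 of the 9, both of Ythdc1, the groups did not overlap, against 12.8% of all. These 2 are not separate observations, because the 2 listed transcripts of Ythdc1 divide 1 gene sum. The same holds for the usage values of Ythdf1 and of Ythdf2.

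**Figure D4:**
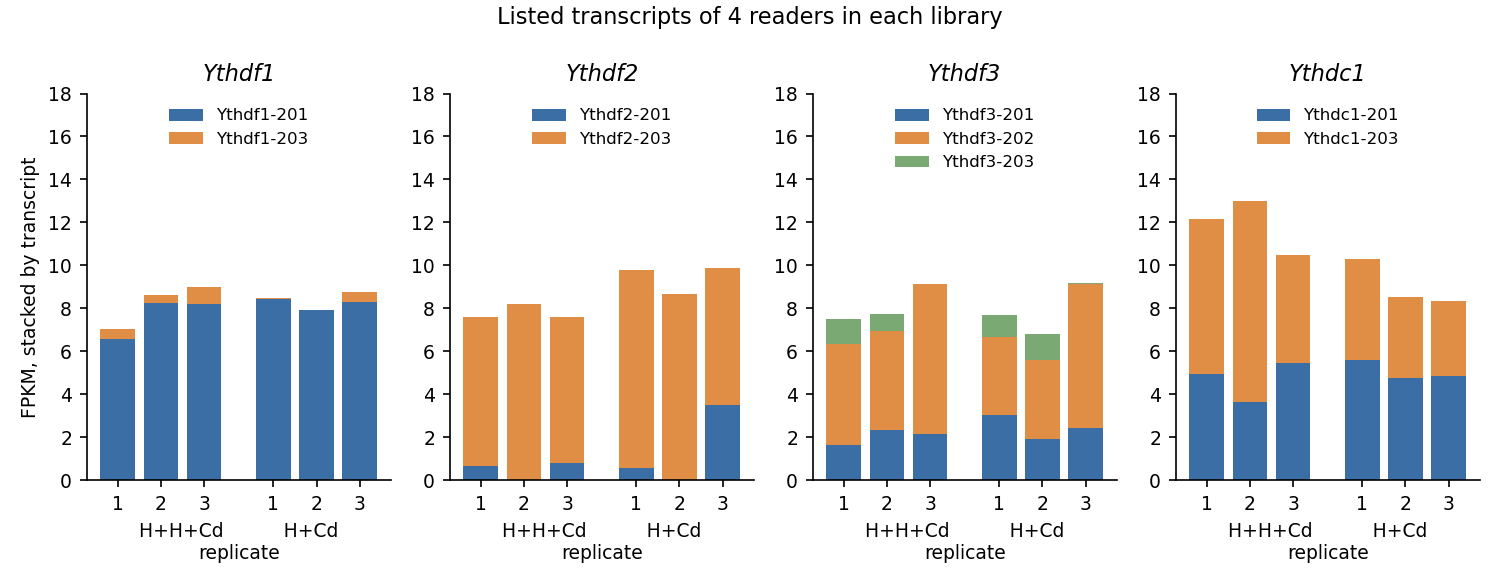
FPKM of the listed transcripts of Ythdf1, Ythdf2, Ythdf3 and Ythdc1, stacked within each library, H+H+Cd replicates left and H+Cd replicates right in each panel; bar height is the gene level. Ythdc1-203 is the larger part of Ythdc1 in H+H+Cd replicates 1 and 2, Ythdf2-201 reaches 3.51 FPKM in H+Cd replicate 3 only, and Ythdf3-203 nearly vanishes in replicate 3 of both groups.

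For Ythdf2 the isoforms varied more than the gene. The full-length Ythdf2-203 had 6.93, 8.20 and 6.80 FPKM in H+H+Cd, against 9.19, 8.69 and 6.37 FPKM in H+Cd. Its lowest value was H+Cd replicate 3, where the exon-skipping Ythdf2-201 reached 3.51 FPKM, or 35.6% of the gene. Ythdf2-201 had 0.663 and 0.824 FPKM in H+H+Cd replicates 1 and 3 and 0.589 FPKM in H+Cd replicate 1, and was listed at 0 in replicate 2 of both groups. Taken alone, Ythdf2-203 differed by -0.12 on the log2 scale (95% confidence interval -0.520 to 0.284, limma, adjusted p = 0.828), less than the gene. It was -0.0279 without H+Cd replicate 1. Without H+Cd replicate 3 it was -0.262, and that of Ythdf2-201 turned from -0.41 to 0.2. Within H+Cd the coefficient of variation was 18.6% for Ythdf2-203 and 7.02% for the gene, so the sum was steadier than its parts.

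Ythdf3 gave a similar picture. Ythdf3-202, with the 33-base exon, was the main isoform with 4.70, 4.63 and 6.96 FPKM in H+H+Cd, against 3.653, 3.696 and 6.719 FPKM in H+Cd. Replicate 3 was highest in both groups, at 76% and 73.3% of the gene. In the same libraries Ythdf3-203 had 0.0225 FPKM (H+H+Cd) and 0.0270 FPKM (H+Cd), whereas it had 0.785 to 1.17 FPKM in the other 4 libraries. Ythdf3-201 ran from 1.63 to 2.32 FPKM in H+H+Cd and from 1.92 to 3.02 FPKM in H+Cd. None of the 3 had groups that lay apart (log2 fold changes of 0.20 for Ythdf3-202, -0.18 for Ythdf3-201 and -0.06 for Ythdf3-203, limma, adjusted p from 0.771 to 0.977). With 1 library left out, Ythdf3-202 ran from 0.037 (without H+H+Cd replicate 3) to 0.441 (without H+Cd replicate 3), and Ythdf3-201 from -0.293 (without H+Cd replicate 2) to -0.0621 (without H+Cd replicate 1). Whether such swings lie in the mice or in the division of reads among isoforms was not tested.

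The rest of the m6A pathway was described from lists of genes. Of 11 writers and erasers, which place and remove the mark, 0 passed (0.00726% of all genes), and by limma 1 had an unadjusted p under 0.05 (11.9% of all genes). Their log2 fold changes were positive in 0 and negative in 11, while 50.2% of all genes were positive, and their median was -0.10. The groups did not overlap for 1 of them, lower in H+H+Cd, against 11% of all genes on that side. This was Rbm15, an adaptor that brings the writer complex to RNA, with 3.91, 4.09 and 3.97 FPKM in H+H+Cd, against 5.22, 4.46 and 5.21 FPKM in H+Cd (log2 fold change -0.25, limma, adjusted p = 0.390). Cbll1, a subunit of the complex, averaged 7.30 ± 2.32 FPKM in H+H+Cd and 10.8 ± 2.03 FPKM in H+Cd (SD, n = 3 each), with overlapping groups. Fto, an eraser and the most abundant of the list, averaged 14.4 ± 2.19 FPKM in H+H+Cd and 15.4 ± 0.414 FPKM in H+Cd.

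Of 11 other proteins proposed as m6A readers, 0 passed (0.00726% of all genes) and by limma 1 had an unadjusted p under 0.05 (11.9% of all genes), with 2 positive and 9 negative log2 fold changes (50.2% of all genes positive) and a median of -0.06. Lrpprc, a mitochondrial mRNA-binding protein, had 12.86, 12.47 and 11.62 FPKM in H+H+Cd, against 14.72, 16.47 and 15.42 FPKM in H+Cd. Its groups lay well apart (log2 fold change -0.31, 95% confidence interval -0.496 to -0.129, limma, adjusted p = 0.338). Prrc2a averaged 68.1 ± 1.07 FPKM in H+H+Cd and 63.2 ± 4.91 FPKM in H+Cd. Fxr1, an RNA-binding protein of spermatids, was the most abundant at 341 ± 25.5 FPKM in H+H+Cd and 356 ± 37.7 FPKM in H+Cd.

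Of 13 partner proteins of the readers, 0 passed and by limma 3 had an unadjusted p under 0.05, 1 higher and 2 lower, against 11.9% of all genes (5.31% higher, 6.59% lower) and 0.00726% past adjustment. Log2 fold changes were positive in 5 and negative in 8 (50.2% of all genes positive), with a median of -0.08. Rbm46, which works with YTHDC2 and MEIOC in meiotic germ cells of mice, had 35.3, 33.9 and 34.98 FPKM in H+H+Cd, against 39.9, 43.2 and 41.8 FPKM in H+Cd. All H+H+Cd libraries were lower, as for Ythdc2 and for 11% of all genes. The log2 fold change was -0.25 (95% confidence interval -0.393 to -0.113, limma, adjusted p = 0.338). Meioc had 46.84, 40.55 and 45.75 FPKM in H+H+Cd, against 50.41, 55.87 and 46.09 FPKM in H+Cd. Its groups overlapped (log2 fold change -0.19, limma, adjusted p = 0.470). Fip1l1, a subunit of the polyadenylation machinery, had 14.7, 15.9 and 14.3 FPKM in H+H+Cd, against 11.3, 11.6 and 13.5 FPKM in H+Cd (log2 fold change 0.29, limma, adjusted p = 0.375). Pabpc1, the poly(A)-binding protein, was the most abundant of the list with 976 ± 40.6 FPKM in H+H+Cd and 1158 ± 153 FPKM in H+Cd.

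**Figure D5:**
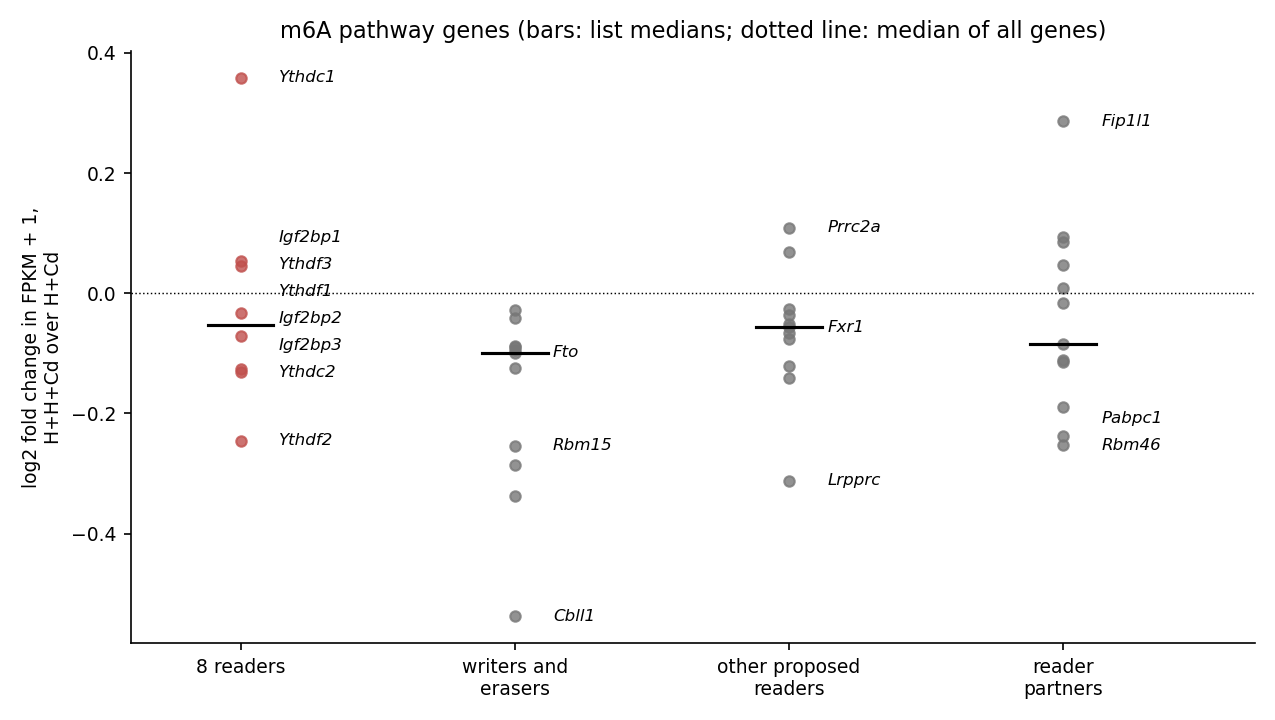
log2 fold change in FPKM + 1, H+H+Cd over H+Cd, of the 8 readers and of 3 lists of m6A genes, one point per gene, with a bar at each list's median and a dotted line at the median of all genes. The list medians run from -0.10 to -0.05, Ythdc1 is the highest point, and Matr3 (-1.98, among the partners) lies outside the axis.

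The genes whose profiles over the 6 libraries were most like those of 3 readers were also named, by the root-mean-square difference between log2(FPKM + 1) values centred on each gene's own mean. Nearest to Ythdf2 were Rbm15 (difference 0.0206), Snx5 (0.0233) and Ugdh (0.0241), among 10683 genes compared. Nearest to Ythdc1 were Crtc2 (0.0314), Nelfb (0.0360) and Stxbp4 (0.0435), among 8035, and to Igf2bp1 they were Hmmr (0.0225), Abhd14a (0.0231) and Rpn1 (0.0245), among 11895. The libraries' own spread, an SD of 0.237 for Ythdc1, 0.151 for Ythdf2 and 0.0796 for Igf2bp1, gives the scale. The likeness is a description over 6 libraries.

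Of 12 marker lists, 3 had summed levels whose groups did not overlap, and these are given for that reason. For single genes the share without overlap was 19.4%. The summed level of 12 spermatocyte markers was 2747 to 2833 FPKM in H+H+Cd and 2881 to 3453 FPKM in H+Cd, and that of 11 listed spermatogonia markers 55.7 to 58.1 FPKM in H+H+Cd and 58.6 to 63.3 FPKM in H+Cd. Both lay lower in H+H+Cd, as did Ythdf2, Ythdc2 and Igf2bp3, and 11% of all genes. The sum of 7 endothelial markers was 5.85 to 6.75 FPKM in H+H+Cd and 5.51 to 5.65 FPKM in H+Cd. This sum lay higher in H+H+Cd, as did Ythdc1 and 8.34% of all genes. Single genes did not all follow these sums. Log2 fold changes were negative in 9 of 12 spermatocyte and 9 of 11 spermatogonia genes, and positive in 5 of 7 endothelial genes. Of all genes, 50.2% were positive. All H+H+Cd libraries were lower for 3 spermatocyte and 4 spermatogonia genes, and higher for 1 endothelial gene. The groups overlapped for the other 9 lists, among them those of round and elongating spermatids, Sertoli, Leydig and peritubular myoid cells and macrophages. The peritubular myoid list had 8 of 8 log2 fold changes positive, beside 50.2% of all genes. Its sum was 187.7 to 224.1 FPKM in H+H+Cd and 155.5 to 211.4 FPKM in H+Cd. The macrophage list had 6 of 8 positive. By limma 3 of its genes were higher at an unadjusted p under 0.05, beside 5.31% of all genes on that side, and 0 passed after adjustment. In the placenta list 26 of 29 listed genes were tested, and all 26 were positive, beside 50.2% of all genes. The filter keeps a gene by its mean in either group, so a gene can pass through the group where it is high. The sum was 272 FPKM in H+H+Cd replicate 1, 15.2 and 18.9 FPKM in the other H+H+Cd libraries, and 17.25 to 34.1 FPKM in H+Cd. These signs are therefore not read as a group difference. None of the listed genes of the 12 lists was at 0 in all libraries, and their part in the reader values was not tested.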

How the data were processed

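Polyadenylated RNA of 6 mouse testes was sequenced, 3 libraries per group as given by the sample labels. Per the study's methods, the authors estimated transcripts with StringTie against known transcripts and deposited FPKM per transcript and library through Ballgown. The processing notes name mm10. For the aligner and for tool versions, the sources used here give no name or number. Counts are absent from the table.

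Transcript identifiers were matched without version to GENCODE M21 (27018 of 27120 matched, all 13 reader transcripts with the same version), and gene values were sums over listed transcripts. Features with a mean above 0.5 FPKM in at least 1 group were tested as log2(FPKM + 1) with limma 3.58.1 in R 4.3.3 (variance trend, two-sided, group as the only factor, Benjamini-Hochberg adjustment over all features at 0.05). Where no other test is named, a p comes from limma. Usage was the transcript's log2(FPKM + 1) minus that of its gene, over genes with at least 2 listed transcripts. The study's per-feature F-test was run as an alternative. Tables and figures used Python 3.11.15, pandas 2.3.3, Biopython 1.88 and matplotlib 3.10.9. The gene fit was tested on simulated data with independent noise, and the transcript and usage fits were not.

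All 8 readers and their transcripts are described. From each pathway list the 2 genes of smallest p and the most abundant were named, and Meioc was added beside Rbm46. Likeness was computed among genes with a mean of at least 1 FPKM and an SD of at least 0.5 times the reader's, for the 2 readers of smallest p and Igf2bp1. The members and lists were chosen with earlier results of these data known. The labels name separate samples, and the methods state 1 male per litter. Each library was left out in turn. Further alternatives were limma with the replicate number as a block or without the variance trend, the F-test, quantile or median-ratio normalization, another pseudocount (0.1), the filter dropped or raised to 1 FPKM, the study's thresholds, and the most abundant transcript in place of the gene sum.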

Additional observations from a re-analysis of the deposited data

How the results depend on the processing

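No reader gene, transcript or usage value passed the threshold under any of the alternatives that use an adjusted p (limma, or the F-test, with Benjamini-Hochberg adjustment), and the smallest adjusted p was 0.187. At the study's thresholds, with no adjustment, 1 reader gene passed (Ythdc1) instead of 0 with the fold on the FPKM + 1 scale. With the fold as a ratio of mean FPKM, added after seeing the data, 2 passed (Ythdc1 and Ythdf2). Under the alternatives meant to move a fold change (pseudocount, rescaling, quantile normalization, most abundant transcript) 98 of 98 kept their sign. Some of these could not move: for Ythdc2, Igf2bp1, Igf2bp2 and Igf2bp3 the single listed transcript is the gene sum. Of 180 values with a library left out, 14 turned. Both counts hold those single-transcript genes a second time, as transcripts. With 1 library left out, the log2 fold change of the gene Ythdf1 ran from -0.094 to 0.0639 and that of Ythdf3 from -0.0448 to 0.147. Among transcripts it ran from -0.204 to 0.0342 for Ythdc1-201, from -0.888 to 0.2 for Ythdf2-201 and from -0.399 to 0.255 for Ythdf3-203. Usage ran from -0.588 to 0.415 for Ythdf2-201, from -0.0464 to 0.235 for Ythdf2-203 and from -0.546 to 0.289 for Ythdf3-203. The cause was not tested. A filter at 1 FPKM left 6 reader genes (not Igf2bp1 and Igf2bp2), 9 transcripts and 7 usage values to test.

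The labels give no pairing of libraries by replicate number. Deviations of same-numbered libraries from their group means correlated at -0.0759, -0.00177 and -0.163 across genes, and those of unlike-numbered libraries at -0.0598 to 0.131. Such correlations over few libraries do not settle whether single features share a factor by number. Ythdf2-201 was lowest in replicate 2 of both groups and Ythdf3-203 in replicate 3 of both. With the replicate number as a block 0 readers passed and 1 had an unadjusted p under 0.05. Over all features the number past the threshold ran from 0 to 13 for genes (1 as reported), from 1 to 86 for transcripts (33) and from 0 to 49 for usage (26). The block gave 0, 1 and 0. Depth is unknown, and with 3 libraries per group the 95% confidence interval of Ythdf2-201 ran from -1.91 to 1.08 on the log2 scale.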

Other observations

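Matr3, a nuclear matrix protein that was listed here among the reader partners, had the largest negative log2 fold change of that list (-1.98) and was singled out after its values were seen. It had 2.27, 1.73 and 2.64 FPKM in H+H+Cd testes, against 36.9, 13.6 and 2.62 FPKM in H+Cd testes. The difference lay in H+Cd replicates 1 and 2, while H+Cd replicate 3 was within the H+H+Cd range (limma, adjusted p = 0.413).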
